A study of Mus musculus with 194 samples.

Results

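Proteasome genes were followed across 5 brain structures of mice given cocaine. The genes are those of the count table whose symbol begins with Psm, a family letter from a to g and a digit, and whose mean level reached 5 CPM (a gene's count divided by its library's total and scaled to a fixed library size) in at least 1 structure. Of 50 symbols that match, 46 passed, out of 19363 genes in the table. They comprise the 7 alpha and 7 beta subunits of the 20S core, the 6 ATPases and 11 non-ATPase subunits of the 19S regulator, 2 catalytic subunits of immune type, 4 activators, 1 inhibitor, 3 assembly factors of the 19S and 4 of the 20S. The last of the 46, Psmc3ip, encodes a recombination cofactor named for binding Psmc3 and is no subunit of the proteasome. The samples were 3′ RNA-seq libraries from male C57BL/6OLAHSD mice, bought at 6 to 7 weeks of age, that received cocaine at 20 mg/kg by intraperitoneal injection and were taken 0, 1, 2 or 4 hr later. Acute mice received their first dose (0 hr: naive mice from the home cage), repeated mice 5 daily doses and were timed from the last (0 hr: 24 hr after the fourth dose; the labels call this group chronic), and challenge mice a dose after 21 days of abstinence from repeated cocaine (0 hr: abstinent mice). The table holds 194 libraries of 48 mice: 72 from the dorsal striatum (DS), 37 from the nucleus accumbens (NAc), 29 from the limbic cortex (LCtx), 32 from the amygdala (Amy) and 24 from the lateral hypothalamus (LH).

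The labels tie each treatment to its own cohort of mice (acute exp20, repeated exp17 and, in the DS only, exp16, challenge exp18), so cohort and treatment cannot be told apart, and challenge mice were also older by the time of abstinence. No saline-injected group was used here. The study names sequencing runs in its labels, and only 1 run of DS libraries, run0194 (the shared run below), holds all 3 treatments of a structure. It holds 8 mice of each treatment, 2 per time point, and the same 24 mice also have a library from another run, run0090 for acute and run0230 for repeated and challenge cocaine. The labels do not say whether these second libraries were prepared anew or only sequenced again. Library totals ran from 1193306 to 10367769 counts. Markers fitted the labelled structures: Drd1 had a median of 387 CPM in the DS and 187 in the NAc against 24.03 or less elsewhere, and the peptide gene Hcrt had 5649 in the LH and also 371 in the Amy. Acute LCtx libraries carried summed blood markers (8 genes, among them hemoglobin) of 8767 to 14792 CPM, against 353 to 1226 in the other LCtx libraries.

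The proteasome degrades proteins that carry ubiquitin chains. Its 20S core is a stack of alpha and beta rings, with the cutting sites on the beta subunits Psmb5, Psmb6 and Psmb7. The 19S regulator caps the core: its ring of ATPases, Psmc1 to Psmc6, unfolds substrates, while non-ATPase subunits such as Psmd4 bind ubiquitin and Psmd14 removes it. In the immune form of the core, Psmb8, Psmb9 and Psmb10 replace the standard catalytic subunits, and the activators Psme1 and Psme2 form a ring that can replace the 19S. The transcription factors Nfe2l1 and Nfe2l2 drive proteasome genes through antioxidant response elements, and in neurons proteasome activity takes part in the turnover of synaptic proteins.

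Because these elements are the known route by which subunit genes are raised together, promoters were searched for the core of the element, TGACNNNGC, on both strands, in 250 bases before and 50 after the RefSeq gene start (GRCm38.p6). Promoters were found for 39 of the 46 genes, and 6 of them (15.4%: Psmb5, Psmb6, Psmc6, Psmd12, Psmd9 and Psme4) hold the motif, beside 13.99% of the 27025 promoters of all genes, so the share of proteasome genes was near that of all. The cAMP response element TGACGTCA, which shares its first bases with that motif, was in 0 of 39 promoters and in 2.03% of all. The CCAAT box was in 33.3% and 41.1%. The promoters of both catalytic subunits that hold the motif are shown with it in capitals, 47 bases before the start in Psmb5 (chr14:54617946-54618245, minus strand) and 9 bases before it in Psmb6 (chr11:70525107-70525406, plus strand).
Psmb5: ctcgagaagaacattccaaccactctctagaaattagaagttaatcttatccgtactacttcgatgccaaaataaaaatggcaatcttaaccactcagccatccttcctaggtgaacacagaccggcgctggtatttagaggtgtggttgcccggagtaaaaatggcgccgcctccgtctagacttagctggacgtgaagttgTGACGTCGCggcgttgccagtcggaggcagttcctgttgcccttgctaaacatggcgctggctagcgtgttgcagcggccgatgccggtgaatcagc
Psmb6: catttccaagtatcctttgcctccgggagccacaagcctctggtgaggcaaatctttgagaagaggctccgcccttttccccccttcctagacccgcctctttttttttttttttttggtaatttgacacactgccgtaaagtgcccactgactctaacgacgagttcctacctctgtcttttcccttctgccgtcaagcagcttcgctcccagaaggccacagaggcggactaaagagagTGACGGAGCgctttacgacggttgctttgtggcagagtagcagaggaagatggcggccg

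The genes near the 5 CPM limit included the immune subunits Psmb8 and Psmb9. Psmb9 reached 4.60 CPM at most (LCtx), with Psme2b at 2.95, Psma8 at 0.231 and the thymus subunit Psmb11 at 0.164, and these 4 were left out. Just inside were Psmb8 with 12.4 and Psmc3ip with 15.03 CPM in their highest structure. All 46 genes passed the filter on low counts in every fit. In the annotation of GRCm38, 13 of them share an exon with another gene, and 10 have a near-identical copy elsewhere (at least 95% identity over 150 bases of the transcript end). The 10 are Psma3, Psma4, Psma5, Psmb3, Psmb5, Psmc1, Psmd2, Psmd11, Psme1 and Psme2. Whether the counting used strand is not stated, so reads of Psmb7 (chr2:38588036-38644087, minus strand) cannot be told from those of Nek6 where the genes overlap on opposite strands, and the same holds for Psmc3 (chr2:91054009-91066369, plus strand) and Slc39a13, Psme1 and Emc9, and Psmd1 and Htr2b.

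In the shared DS run, every proteasome gene that passed the test was higher after repeated than after acute cocaine, or higher after challenge than after either. From acute to repeated cocaine 10 of 46 genes rose and 0 fell, where 9.79% of 11210 genes rose and 7.94% fell (edgeR quasi-likelihood test with time in the model, Benjamini-Hochberg adjusted p under 0.05). From acute to challenge 17 rose and 0 fell, beside 11.6% and 9.84% of all genes, and from repeated to challenge 6 rose and 0 fell, beside 3.05% and 2.57%. The median log2 fold change of the 46 genes was 0.08, 0.13 and 0.11 in these comparisons, against 0.01 or less over all genes. The comparisons share their libraries. From acute to challenge, 5 of 7 beta subunits (Psmb7, Psmb3, Psmb6, Psmb2, Psmb4), 2 of 7 alpha subunits (Psma5, Psma6), 4 of 6 ATPases (Psmc3, Psmc1, Psmc5, Psmc4) and 3 of 11 non-ATPases (Psmd13, Psmd8, Psmd6) rose. Of the remaining groups Psme1, Psme3 and Psmb10 rose, while 0 of 7 assembly factors and not the inhibitor Psmf1 passed the test. Of the 17 calls, 12 held in all 24 fits that left out 1 library, and those of Psmb2, Psmd6, Psmb10, Psmb4 and Psme3 were lost in 11, 10, 9, 7 and 1. From acute to repeated 8 of 10 held in all 24, and those of Psmd13 and Psmb3 were lost in 18 and 2.

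**Figure D1:**
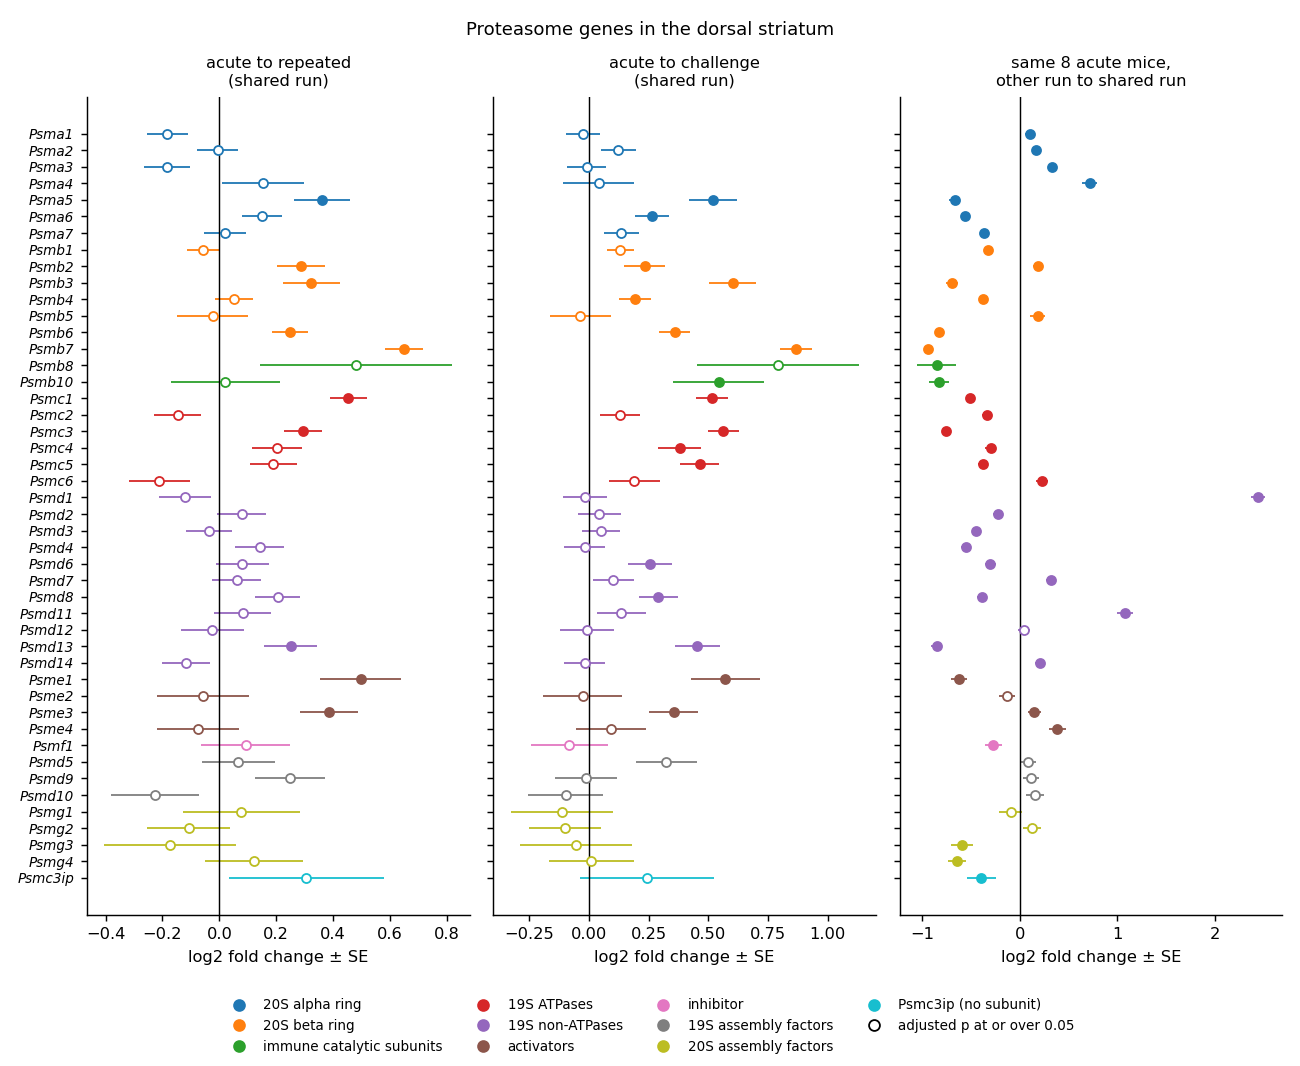
Log2 fold change ± SE of each of the 46 genes in the dorsal striatum, grouped and colored by role; filled points have an adjusted p under 0.05. In both comparisons of treatments within the shared run all filled points lie right of 0, and in the 8 acute mice with libraries in both runs Psmb7 (-0.94) and Psmb6 (-0.83) lie far left and Psmd1 (2.44) far right.

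Library totals of the shared run also differed by treatment, with 2096787 to 2704694 counts in acute, 1689860 to 2170571 in repeated and 1269391 to 1805910 in challenge libraries, so that acute and challenge totals did not overlap, and their part in the values was not tested. The summed level of the 14 core genes was lowest to highest in the order acute, repeated, challenge. It was 1991 ± 70.9 CPM (SD, n = 8) after acute cocaine, with libraries between 1919 and 2107, 2129 ± 109 after repeated cocaine (2032 to 2327) and 2325 ± 91.8 after challenge (2186 to 2499). The 17 regulator genes summed to 1855 ± 36.5 (1798 to 1906), 1992 ± 86.1 (1835 to 2117) and 2162 ± 68.1 CPM (2031 to 2241). Acute and challenge libraries did not overlap in either sum, and repeated libraries overlapped both. The ratio of core to regulator was 1.07 ± 0.04, 1.07 ± 0.05 and 1.08 ± 0.04, and differed between treatments by less than its spread. These sums are a description, with no test.

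Psmb7, the beta subunit with trypsin-like activity, had the largest change in both comparisons with acute cocaine. Its lowest, median and highest levels were 123.5, 139 and 143 CPM in acute libraries, 196, 207 and 240 in repeated libraries, and 216, 247 and 283 in challenge libraries. The acute libraries lay below all others, and repeated and challenge libraries overlapped. Its log2 fold change was 0.65 ± 0.07 (SE, adjusted p = 5.43e-12) from acute to repeated and 0.87 ± 0.07 (adjusted p = 3.86e-17) from acute to challenge. Psmc3, an ATPase of the regulator, stood at 158, 168 and 183 CPM after acute, 167, 206 and 237 after repeated and 215, 243 and 294 after challenge cocaine, so that acute and challenge libraries did not overlap. It rose by 0.29 ± 0.07 (adjusted p = 0.000645) and 0.56 ± 0.07 (adjusted p = 3.25e-10). Psmc1, another ATPase, ranged from 150 to 192 CPM after acute, from 190 to 272 after repeated and from 218 to 279 after challenge cocaine, with log2 fold changes of 0.45 ± 0.07 and 0.51 ± 0.07 (adjusted p = 2.16e-07 and 5.82e-09). Psmb3, a structural beta subunit, ranged from 54.5 to 76.4 CPM, from 66.4 to 103 and from 87.7 to 145, and its acute to challenge change was 0.60 ± 0.10 (adjusted p = 2.23e-06).

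Less abundant genes spread more between libraries. The activator Psme1 had medians of 34.7, 52.1 and 48.6 CPM after acute, repeated and challenge cocaine and rose by 0.50 ± 0.14 and 0.57 ± 0.14 (adjusted p = 0.0093 and 0.0021), although the lowest repeated library (24.2) and the lowest challenge library (28.5) lay within or under the acute range of 27.8 to 40.1. The immune subunit Psmb10 had medians of 18.5, 20.3 and 30.7 CPM, with challenge libraries anywhere from 10.6 to 38.6. It rose from acute to challenge by 0.54 ± 0.19 (adjusted p = 0.030) and differed by 0.02 ± 0.19 from acute to repeated. Psmb5, which carries the chymotrypsin-like activity, had medians of 48.9, 50.3 and 48.6 CPM, and its change from acute to challenge was -0.04 ± 0.13 (adjusted p = 0.88). The ubiquitin receptor Psmd4 and the deubiquitinase Psmd14 had medians of 111, 123 and 103 CPM and of 123, 120 and 118 CPM, and neither passed the test in these comparisons.

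Cell type markers moved in the same comparisons. From acute to challenge 5 of 6 oligodendrocyte markers fell (summed level 11251 to 12883 CPM in acute, 6928 to 9933 in challenge libraries), all 4 tested blood markers rose (267 to 348 against 337 to 819 CPM), and all 3 ependymal markers rose (12.8 to 54.9 against 83.2 to 132 CPM). From acute to challenge 2 of 4 neuron markers fell (sum 3305 to 3555 against 2991 to 3246 CPM) and 2 of 6 microglia markers rose. From acute to repeated all 3 ependymal markers rose as well, 3 of 6 oligodendrocyte markers fell and 1 rose (sum 8916 to 10993 CPM after repeated cocaine, below every acute library), 2 of 4 neuron markers fell and 1 rose (sum 2965 to 3313), 3 of 6 microglia markers rose and 1 fell (sum 517 to 581 against 572 to 682), and 1 of 5 endothelial markers rose (sum 144 to 263 against 249 to 353). The marker levels of acute libraries also differed by run. In run0090 the neuron sum was 2094 to 3033 CPM and the microglia sum 686 to 810 CPM, and in the same 8 acute mice 3 of 4 neuron markers were higher in the shared run, while 4 of 6 microglia and 4 of 6 oligodendrocyte markers were lower and 1 of each was higher. In bulk tissue, fewer cells of a type and less RNA per cell cannot be told apart, and the part of these cells in the proteasome values was not tested.

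The libraries of the same mice from their other runs gave a different picture for acute cocaine. In the 8 acute mice, 13 of 46 genes were higher and 26 lower in the shared run than in run0090, in a comparison in which 35.4% of 11561 genes were higher and 33.5% lower. Psmb7 stood at 249 ± 20.3 CPM in run0090 and at 137 ± 6.79 in the shared run, and was lower in 8 of 8 mice. Psmc3 stood at 268.9 ± 11.98 and 169 ± 9.30, Psmb3 at 103 ± 10.5 and 67.0 ± 8.68, Psmc1 at 227 ± 7.62 and 169 ± 13.4, and Psmb6 at 320 ± 15.5 and 190 ± 8.80, each lower in the shared run in all 8 mice. Psmd1, the large scaffold subunit of the regulator base, went the other way, from 19.3 ± 3.34 to 111 ± 10.2 CPM (log2 fold change 2.44 ± 0.07), and Psmd11 from 32.7 ± 5.07 to 73.0 ± 8.54, with no overlap between runs.

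**Figure D2:**
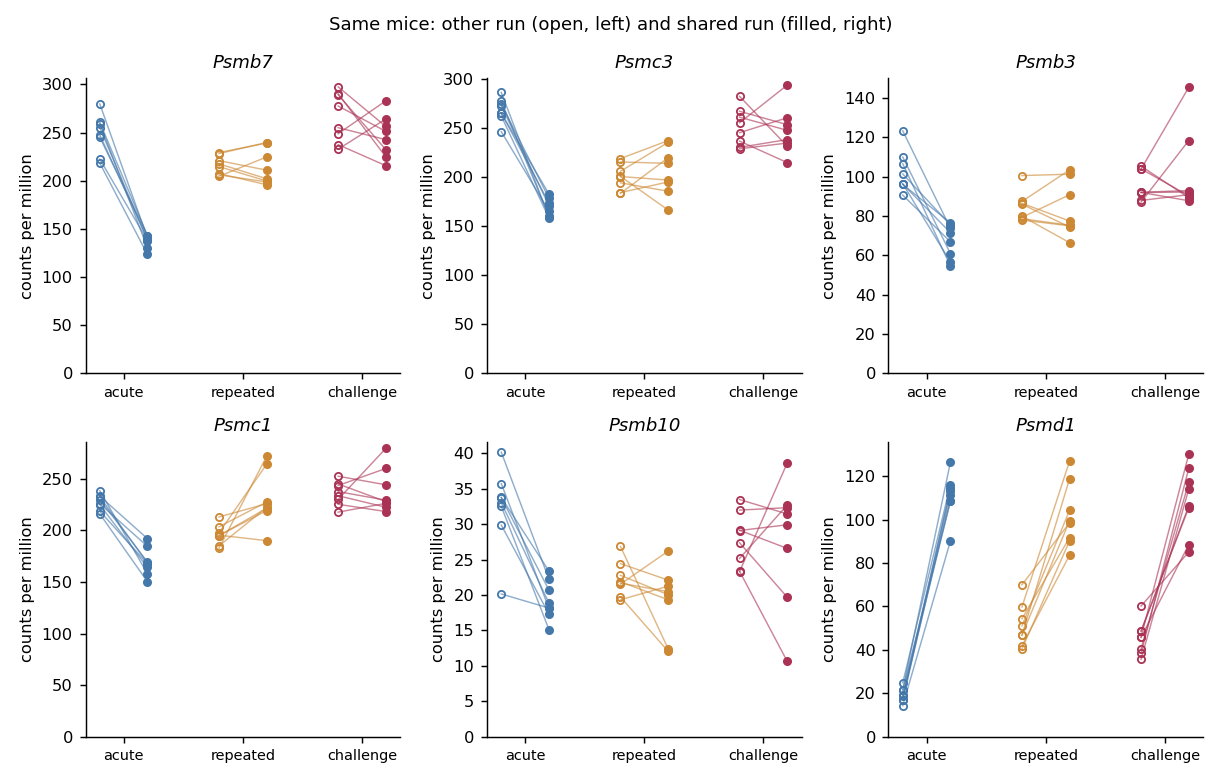
Levels of 6 genes in CPM in the dorsal striatum, with 1 line per mouse (8 per treatment) from its library in another run (open, left) to its library in the shared run (filled, right). Psmb7, Psmc3, Psmb3 and Psmc1 dropped in every acute mouse (Psmb7 from 249 to 137 on average), while Psmb7 moved from 216 to 214 in repeated mice and Psmd1 was higher in the shared run in all mice.

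Repeated and challenge mice differed less between runs, with a median log2 fold change of the 46 genes of -0.07 and -0.09, against -0.30 in acute mice. Of 46 genes, 4 were higher and 11 lower in the shared run in repeated mice (12.3% and 10.8% of all genes), and 4 were higher and 13 lower in challenge mice (10.1% and 10% of all genes). The fitted spread was larger here (common coefficient of variation 0.114 and 0.131, against 0.046 in acute mice), so counts of calls cannot be compared directly. Psmb7 stood at 216 ± 9.70 and 214 ± 18.2 CPM in repeated mice and at 266 ± 25.6 and 246 ± 22.0 in challenge mice, and Psmc3 at 200.5 ± 13.03 and 206 ± 24.7 and at 251 ± 18.95 and 247 ± 23.7. Psmd1 and Psmd11 were higher in the shared run there too (Psmd1 by 1.00 ± 0.09 and 1.25 ± 0.10 on the log2 scale). The sum of the core was lower in the shared run in 8 of 8 mice of each treatment, while that of the regulator was lower in 8 acute, 4 repeated and 5 challenge mice.

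When the other-run libraries of the same mice replaced those of the shared run, acute mice in run0090 were set against repeated or challenge mice in run0230, so run and treatment could not be told apart. From acute to repeated 16 genes were then higher and 18 lower (56.7% of 12152 genes passed in either direction), and from acute to challenge 20 were higher and 11 lower (57.8%). Of the 10 genes that rose from acute to repeated in the shared run, 8 then passed in the opposite direction (Psmc3 by -0.53 ± 0.05, Psmb6 by -0.52 ± 0.04, Psmd13 by -0.52 ± 0.06, Psmb3 by -0.38 ± 0.06, Psmc1 by -0.32 ± 0.04, Psmb7 by -0.30 ± 0.05, Psme1 and Psma5), 1 passed in the same direction (Psmb2, 0.36 ± 0.06) and 1 did not pass (Psme3). Of the 17 that rose from acute to challenge, 7 passed in the opposite direction (Psmd13, Psma6, Psmb10, Psmb6, Psmc3, Psmb3 and Psmd8, between -0.32 and -0.16), Psmb2 alone passed in the same direction (0.27 ± 0.06), and 9 did not pass, among them Psmb7 (0.03, adjusted p = 0.59).

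**Figure D3:**
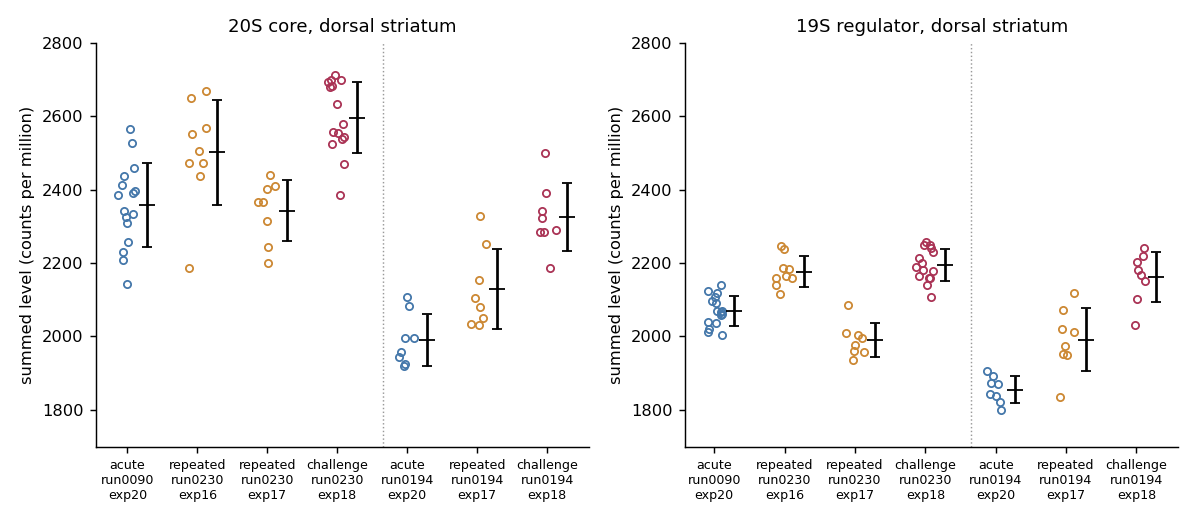
Summed levels of the 20S core and of the 19S regulator in CPM in each dorsal striatum library, by treatment, run and cohort, with mean ± SD to the right of the points; the axis does not start at 0 and the dotted line sets off the shared run. Within the shared run the sums were lowest in acute (1991 for the core) and highest in challenge libraries (2325), and the mean of the acute libraries of run0090 (2358) lay above all 3 means of the shared run for the core.

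The step from repeated to challenge cocaine could be seen in 2 runs. In run0230, libraries of the same 16 mice showed 17 genes higher and 1 lower after challenge, beside 19.7% of 11933 genes that passed in either direction. Of the 6 genes that rose in the shared run, 4 also rose in run0230: Psmc3 by 0.36 ± 0.05, Psmb7 by 0.33 ± 0.05, Psmc5 by 0.17 ± 0.06 and Psmb1 by 0.16 ± 0.04 (0.27, 0.22, 0.28 and 0.19 in the shared run). These are libraries of the same mice and no independent sample. Markers moved in this step too: in the shared run 5 of 6 oligodendrocyte markers fell (sum 8916 to 10993 CPM in repeated, 6928 to 9933 in challenge libraries), 2 of 4 tested blood markers rose (222 to 428 against 337 to 819), and 1 of 6 microglia and 1 of 5 endothelial markers fell. In run0230 the oligodendrocyte sum was 9548 to 11182 CPM in repeated libraries of these mice and 6882 to 10109 in all 15 challenge libraries, and the blood sum 292 to 637 and 522 to 1307. The part of these cells was not tested. Psmc6 and Psmc2, ATPases that rose by 0.40 ± 0.11 and 0.28 ± 0.08 in the shared run, did not pass when run0230 was fitted alone (Psmc6 by 0.16 ± 0.06, adjusted p = 0.052, and Psmc2 by 0.08 ± 0.05, adjusted p = 0.27). With the acute libraries of run0090 in the same fit Psmc6 passed (adjusted p = 0.038). In run0230 alone Psmb6 (0.33 ± 0.05) and Psmc1 (0.30 ± 0.05) rose and Psma4 fell by 0.35 ± 0.08 on the log2 scale. In the shared run the call of Psmc3 held in all 24 fits that left out 1 library, and those of Psmb7, Psmb1, Psmc2, Psmc5 and Psmc6 were lost in 9, 9, 7, 6 and 1. The count of 6 dropped to 2 without challenge replicate 2 at 4 hr, and to 3 without any 1 of 5 others (challenge replicate 1 at 0 hr, replicate 1 at 1 hr and replicate 2 at 2 hr, repeated replicate 3 at 0 hr and replicate 4 at 1 hr).

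Other mice of the same treatments gave fewer calls. Challenge mice without a library in the shared run, set against repeated mice of cohort exp16, gave 2 genes higher (Psme1 by 0.33 ± 0.09, Psmb7 by 0.16 ± 0.05) and 1 lower (Psma4, -0.24 ± 0.08), beside 7.8% and 7.51% of 11749 genes. The calls of Psma4 and Psmb7 were lost in 10 and 8 of 16 fits that left out 1 library, and that of Psme1 in 0. The count of 3 was 1 without challenge replicate 3 at 0 hr, repeated replicate 2 at 0 hr or repeated replicate 1 at 1 hr. Both cohorts of repeated mice were sequenced in run0230, and between them 12 of 46 genes were higher in exp16 than in exp17 and 0 lower, beside 7.39% and 6.19% of 11778 genes. These were 5 of 6 ATPases (Psmc3 by 0.30 ± 0.05, Psmc1 by 0.29 ± 0.05, Psmc4, Psmc5, Psmc2), 3 beta subunits (Psmb6 by 0.28 ± 0.05, Psmb7 by 0.21 ± 0.05, Psmb1), Psma6, Psma2, Psmd2 and Psmd8. Of these calls Psmc2, Psma2, Psmc5, Psma6 and Psmb1 were lost in 10, 9, 4, 3 and 1 of 17 fits that left out 1 library. All 17 regulator genes had a positive difference, and the regulator summed to 2177 ± 42.7 CPM (n = 9) in exp16, 1991 ± 46.3 (n = 8) in exp17 and 2195 ± 44.6 (n = 15) in challenge libraries of that run. The sums of exp16 and of challenge libraries thus lay within their spread of each other, above exp17. The 3 ependymal markers and 4 of 5 endothelial markers were lower in exp16, and all 3 ependymal markers were higher and all 6 oligodendrocyte markers lower in challenge mice than in exp16. The blood sum in run0230 was 333 to 615 CPM in exp16 and 522 to 1307 in all 15 challenge libraries. The part of these cells was not tested.

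At 0 hr, with no cocaine on that day and 2 mice per group in the shared run, 1 gene was higher in repeated than in naive mice (Psmb7 by 0.52 ± 0.13, adjusted p = 0.022) and 0 were lower, beside 1.02% and 0.862% of 12297 genes. In abstinent against naive mice 3 were higher (Psmb7 by 0.78 ± 0.13, Psmc1 by 0.50 ± 0.14, Psmc3 by 0.48 ± 0.13) and 0 lower, beside 2.07% and 1.46%. The naive libraries held 139 and 141 CPM of Psmb7, repeated libraries 199 and 202, and abstinent libraries 243 and 232. With the other-run libraries of these mice Psmb7 was lower in repeated mice (-0.43) and did not pass in abstinent mice (-0.03). From naive to repeated, 0 genes passed without any 1 of these 4 naive and repeated libraries and 2 without abstinent replicate 2, and from naive to abstinent 1 passed without either naive library (replicates 3 and 4).

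Over the hours after a dose, few proteasome genes passed the test, and their shares were near those of all genes. In a fit of all DS groups, with each mouse's library from run0090 or run0230, 2 of 46 genes (4.35%) differed between the time points of acute cocaine, beside 4.44% of 12918 genes. Psmb1, a structural beta subunit, stood at 383 to 406 CPM at 0 hr, 372 to 403 at 1 hr, 323 to 353 at 2 hr and 319 to 369 at 4 hr, so that the late libraries lay below the early ones, and the 2 hr change was -0.24 ± 0.07 (adjusted p = 0.0064 over time). The core assembly factor Psmg4 stood at 33.3 to 43.7, 37.8 to 46.8, 23.4 to 37.0 and 29.2 to 40.0 CPM, with a change of -0.47 ± 0.14 at 2 hr (adjusted p = 0.015 over time). After acute cocaine the sum of the core was 2475 ± 83.0, 2418 ± 35.7, 2262 ± 94.4 and 2275 ± 53.7 CPM at 0, 1, 2 and 4 hr (n = 4 each), and that of the regulator 2111 ± 36.0, 2045 ± 25.8, 2043 ± 45.6 and 2082 ± 14.9. At an unadjusted p under 0.05, 9 of 46 genes (19.6%) differed over time after acute cocaine, beside 16% of all genes, 14 (30.4%) at 2 hr, beside 16.3% (35 of 46 with a negative change, median -0.13 on the log2 scale against -0.01 over all genes), and 10 (21.7%) at 4 hr, beside 14.2% (37 negative). With each treatment fitted alone the count of 2 was 1. It was also 1 without acute replicate 4 at 1 hr, replicate 2 at 2 hr or replicate 4 at 2 hr, and 4 without acute replicate 4 at 0 hr. In the edgeR fit time passed for 0 of 46 genes after repeated cocaine (0.557% of all genes) and for 0 after challenge (0.766%), with 0 and 1 genes at an unadjusted p under 0.05 (7.63% and 7.61% of all genes), and DESeq2 called 3 genes over the 3 treatments together. The time courses of the treatments differed in 0 of 46 genes by edgeR and by DESeq2, beside 0.031% of all, with 5 (10.9%) at an unadjusted p under 0.05, beside 6.71% of all genes.

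In the other structures time passed for 0 of 46 genes in each of 12 series, by edgeR and by DESeq2, with 0 to 6 of 46 genes (0% to 13%) at an unadjusted p under 0.05, beside 3.47% to 10.1% of all genes. The shares of all genes after acute, repeated and challenge cocaine were 0.285%, 0.054% and 0.131% for the NAc, 0.535%, 0.119% and 0.0967% for the LCtx, 0.132%, 0.0698% and 0.171% in the Amy and 0.121%, 0.0831% and 0.211% in the LH. Groups were small, with 1 library at 4 hr in acute and in repeated LCtx and 2 per time point in acute and repeated Amy. Small changes over time could therefore have been missed.

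Acute and repeated cocaine could be compared within 1 run in the Amy and in the LH. In the Amy 6 genes rose and 2 fell, beside 10.4% and 8.17% of 11980 genes, and in the LH 7 rose and 0 fell, beside 5.63% and 5.32% of 12040. As shares of 46, the Amy counts (13% and 4.35%) were near those of all genes. Of the 17 regulator genes 4 rose in the Amy and 6 in the LH. Psmd3, a scaffold of the regulator lid, rose by 0.26 ± 0.05 in the Amy and 0.22 ± 0.05 in the LH, Psmc5 by 0.23 ± 0.05 and 0.19 ± 0.04, Psmd13 by 0.21 ± 0.06 and 0.20 ± 0.06, and the immune subunit Psmb10 by 0.26 ± 0.05 and 0.19 ± 0.05. The ubiquitin receptor Psmd4 rose in the Amy (0.19 ± 0.05) and differed by 0.13 ± 0.05 in the LH (adjusted p = 0.083). In the Amy the deubiquitinase Psmd14 and Psma5 fell by 0.17 on the log2 scale. The call of Psmd14 was lost in 7 of 16 fits that left out 1 library, as in the LH were those of Psmd8 in 9, Psmc2 in 8 and Psmd13 in 5. Both structures came from the same mice, and the main fit of the difference between them had no term for the mouse. A test of the difference between them passed for 0 of 46 genes by edgeR and by DESeq2 (0.833% of 12485 genes), with 5 (10.9%) at an unadjusted p under 0.05, beside 10.7% of all genes. In the Amy the summed regulator level was 2242 ± 85.5 CPM in acute and 2340 ± 54.0 in repeated libraries, and in the LH 2369 ± 52.2 and 2518 ± 48.6 (n = 8 each). The core summed to 2385 ± 74.8 and 2360 ± 115 in the Amy and to 2696 ± 103 and 2717 ± 39.6 in the LH, where groups overlapped, and the ratio of core to regulator was 1.07 and 1.01 in the Amy and 1.14 and 1.08 in the LH. Markers of neighbouring tissue moved with treatment in the Amy: all 7 striatal markers fell (sum 1171 to 1746 CPM in acute, 724 to 1267 in repeated libraries) and 2 of 3 tested cortical markers rose (549 to 819 against 925 to 1182), and in the LH 2 of 6 striatal and 2 of 3 cortical markers fell. In the LH 2 of 4 neuron markers also fell (sum 2648 to 2961 CPM in acute, 2414 to 2689 in repeated libraries), 3 of 6 oligodendrocyte, 1 of 6 microglia and 1 of 5 endothelial markers rose (endothelial sum 176 to 268 against 227 to 291), and of 5 astrocyte markers 1 rose and 1 fell. In the Amy 2 of 4 neuron markers rose and 1 fell (sum 3088 to 3482 against 3046 to 3294), 2 of 5 endothelial and 2 of 4 tested blood markers rose, 1 of 3 ependymal markers fell, and of 5 astrocyte markers 1 rose and 1 fell. Their part was not tested. The LH count of 7 was 4 without acute replicate 1 at 1 hr or repeated replicate 2 at 4 hr.

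**Figure D4:**
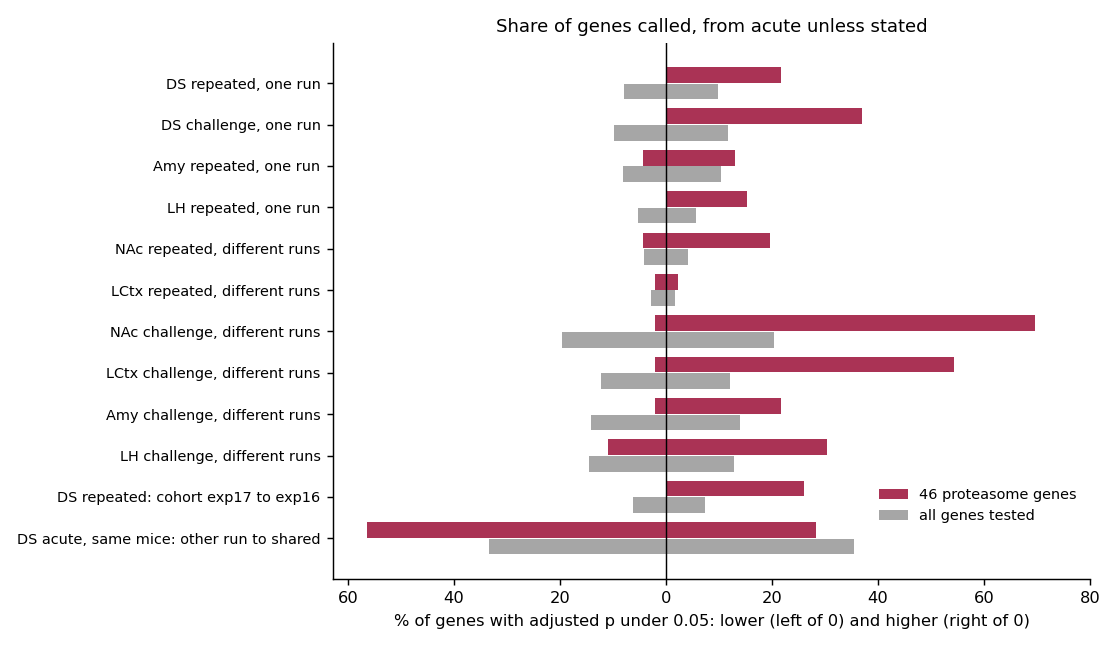
Percent of the 46 proteasome genes (red) and of all genes tested (grey) with an adjusted p under 0.05, lower to the left and higher to the right of 0, in each comparison (from acute cocaine unless stated). Higher calls outnumbered lower calls among proteasome genes in all comparisons shown but 2: LCtx repeated, with 1 each, and the same acute mice in both runs, with 26 lower and 13 higher.

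Challenge was compared with acute cocaine in the other structures only across runs, so run, cohort and treatment cannot be told apart there. In the NAc 32 of 46 genes were higher and 1 lower after challenge (20.3% and 19.6% of 12321 genes), with all 7 beta subunits and 6 of 7 alpha subunits among the higher ones, led by Psmb3 (0.44 ± 0.06), Psmc6 (0.42 ± 0.06) and Psmb2 (0.41 ± 0.06). In the LCtx 25 were higher and 1 lower (12.1% and 12.2% of 12346 genes), led by Psmc5 (0.53 ± 0.07), Psma4 (0.53 ± 0.10) and Psme2 (0.48 ± 0.09). The single lower gene was Psme4, an activator of the nuclear proteasome, in both (-0.43 ± 0.09 and -0.33 ± 0.11, the second call lost in 5 of 28 fits that left out 1 library). In the Amy 10 were higher and 1 lower (13.9% and 14.2% of 12269 genes), led by Psmb4 (0.31 ± 0.05), and in the LH 14 were higher and 5 lower (12.9% and 14.6% of 12366), led by Psma4 (0.50 ± 0.11). Psmb5 was the lower gene in the Amy (-0.26 ± 0.08) and the lowest in the LH (-0.37 ± 0.08), while it was higher in the LCtx (0.46 ± 0.08). All 6 oligodendrocyte markers were lower after challenge in each of the 4 structures, and the 8 blood markers were lower in the LCtx. In the LCtx 3 of 4 neuron markers were lower (sum 4101 to 5324 CPM in acute, 3946 to 4277 and 3572 to 3925 in challenge libraries of run0006 and run0215), and 3 of 6 microglia markers higher (559 to 697 against 657 to 743 and 671 to 794). In the NAc 3 of 4 neuron markers and 4 of 4 tested blood markers were higher and all 3 ependymal markers lower, and in the LH 2 of 4 neuron markers were higher and 1 lower (sum 2648 to 2961 in acute, 2989 to 3539 and 2774 to 3463 in challenge libraries of run0006 and run0215). In the Amy 3 of 3 tested cortical markers were higher (sum 549 to 819 CPM in acute, 963 to 1400 in challenge libraries), 6 of 7 striatal markers lower and 3 of 4 neuron markers higher (sum 3088 to 3482 in acute, 3919 to 4531 and 3475 to 3952 in challenge libraries of run0006 and run0215). The microglia sum of the Amy was 614.5 to 783.5 CPM in acute, and 522.9 to 616.9 and 552.3 to 629.5 in challenge libraries of these runs. The part of these cells was not tested. Repeated against acute cocaine, also across runs, gave 9 higher and 2 lower genes in the NAc (4.06% and 4.2%; led by Psma3 at 0.27 and Psma4 at -0.37) and 1 of each in the LCtx (1.73% and 2.79%: Psmb7 0.22 ± 0.06, Psmb8 -0.70 ± 0.19). In the NAc 1 of 6 microglia markers (sum 603 to 714 CPM in acute, 567 to 634 in repeated libraries) and 2 of 3 ependymal markers (median sum 59.4 against 35.1) were lower, 1 of 7 striatal markers was lower, and 1 of 4 tested blood markers was higher. In the LCtx all 8 blood markers were lower (8767 to 14792 against 353 to 667), the choroid plexus marker Ttr was higher (median sum of the list 2.17 against 57.0), all 7 striatal markers were higher (190 to 638 against 473 to 587), 2 of 6 oligodendrocyte markers lower, and 2 of 5 astrocyte and 2 of 5 endothelial markers higher. Their part was not tested. The NAc count of 11 was 7 without repeated replicate 2 at 1 hr. The LCtx count of 2 was 0 without repeated replicate 2 at 2 hr, and 1 without acute replicate 2 at 0 or 2 hr, repeated replicate 1 or 2 at 1 hr or repeated replicate 1 at 4 hr.

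Between structures of 1 run, single genes differed by more than 0.7 on the log2 scale. In the run that held Amy and LH, 22 of 46 genes were higher and 5 lower in the LH, beside 32.6% and 32.2% of 12041 genes. All 7 beta subunits were higher there (Psmb6 by 0.29 ± 0.03), and Psmc5 (0.40 ± 0.03), Psmb10 (0.38 ± 0.04) and Psmd12 (0.36 ± 0.04) led, while Psmc3ip (-0.77 ± 0.15), Psme4 (-0.27 ± 0.08) and Psmd8 (-0.17 ± 0.04) were lowest. All 6 oligodendrocyte markers were higher in the LH too, with a median log2 difference of 1.42. In the run that held LCtx and NAc, 9 genes were higher and 9 lower in the NAc (24.4% and 25.1% of 11989 genes). Psmc3ip (1.74 ± 0.20) and Psmg4 (0.78 ± 0.11) were highest in the NAc, Psmb10 (-0.94 ± 0.08) and Psmc3 (-0.42 ± 0.05) lowest, and oligodendrocyte markers higher by a median of 2.07.

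Challenge libraries of 4 structures shared 2 runs and 1 cohort and came from overlapping sets of mice, with no mouse term in the main fits. There 21 genes were higher and 9 lower in the NAc than in the Amy (29.7% and 29.1% of 12657 genes), 12 higher and 5 lower in the LCtx than in the Amy (25.9% and 24.6%), 10 higher and 13 lower in the LCtx than in the NAc (27.9% and 28.8%), 4 higher and 20 lower in the Amy than in the LH (27.3% and 27.7%), 7 higher and 13 lower in the LCtx than in the LH (32.9% and 32.4%), and 10 higher and 15 lower in the NAc than in the LH (32.8% and 32.2%). As shares of 46, these counts were near or below those of all genes, except for the genes higher in the NAc than in the Amy and those lower in the Amy than in the LH. With the mouse as a block, these comparisons gave 21 to 30 calls in either direction, against 17 to 30 in the main fits. The NAc had more core than the Amy, with 12 of 14 core genes higher, and the summed core level in run0006 was 3032 ± 99.0 CPM in the LH (n = 5), 2793 ± 68.4 in the NAc (n = 8), 2618 ± 121 in the LCtx (n = 6) and 2606 ± 132 in the Amy (n = 8). The regulator followed another order, with 2452 ± 93.1 in the LH, 2423 ± 131 in the LCtx, 2292 ± 49.7 in the Amy and 2246 ± 69.6 in the NAc. In run0006 the LCtx and Amy did not differ beyond their spread in the core, nor the LH and LCtx or the Amy and NAc in the regulator. In run0215 these orders differed in part: the core was 2797 ± 152 in the NAc (n = 7), 2789 ± 78.5 in the LH (n = 3), 2528 ± 64.6 in the Amy (n = 8) and 2490 ± 181 in the LCtx (n = 8), and the regulator 2446 ± 92.2 in the LCtx, 2432 ± 77.1 in the LH, 2325 ± 29.9 in the Amy and 2280 ± 85.6 in the NAc. The ratio of core to regulator in run0006 was 1.24 ± 0.04 in the NAc and 1.24 ± 0.03 in the LH, 1.14 ± 0.04 in the Amy and 1.08 ± 0.04 in the LCtx. In run0215 it was 1.23 ± 0.05, 1.15 ± 0.03, 1.09 ± 0.03 and 1.02 ± 0.05 in that order.

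The DS shared no run with another structure, so its levels are set beside the others with no test. Psmb10 stood at 32.02 ± 4.66 CPM in run0090, 26.2 ± 4.06 in run0230 and 22.1 ± 7.04 in shared-run libraries of the DS (highest libraries 40.1, 33.8 and 38.6), at 53.8 ± 6.75 in acute NAc libraries (46.7 to 73.2) and 62.3 ± 12.3 in challenge NAc libraries of run0006, and at 99.6 ± 9.43, 111 ± 14.6 and 112 ± 8.09 in challenge Amy, LCtx and LH libraries of that run. Psme1 likewise had means of 51.9 ± 10.6, 49.4 ± 6.70 and 43.7 ± 11.7 CPM in the 3 runs of the DS, against 101 ± 6.86 in the NAc and 132 ± 5.55 in the LH in run0006. Psmc3ip was at 12.1 ± 1.99 and 15.5 ± 3.03 CPM in run0090 and run0230 of the DS and 14.02 ± 2.33 in the NAc, but at 3.72 ± 0.85 in the LCtx of run0006. In tests within runs Psmb10 was lower in the NAc than in the LCtx, Amy and LH (-0.94 ± 0.08 in run0222 against the LCtx, -0.64 ± 0.06 against the Amy and -0.77 ± 0.07 against the LH after challenge).

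**Figure D5:**
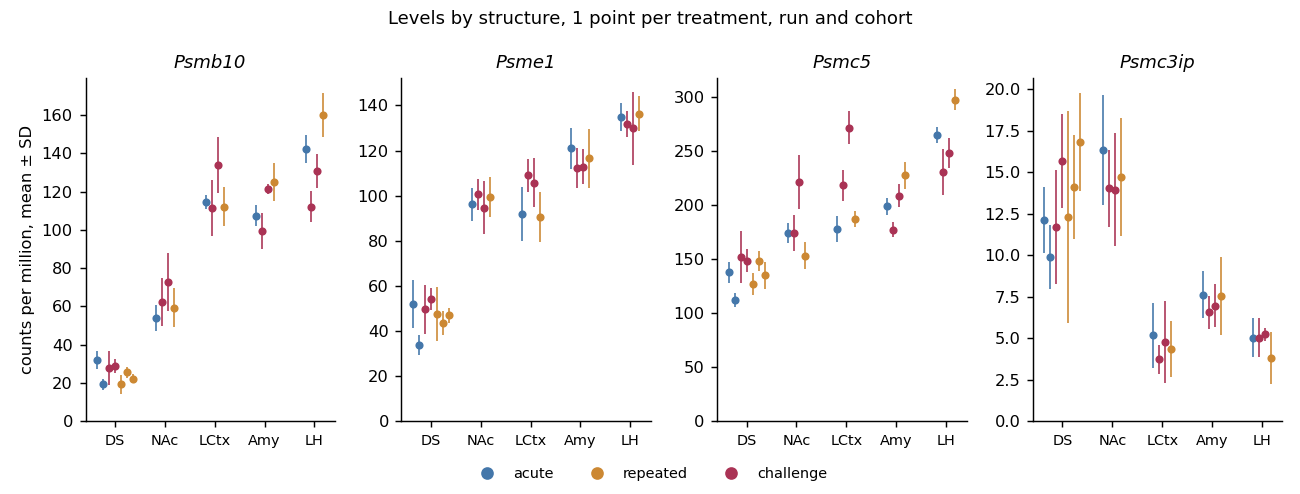
Levels of 4 genes in CPM (mean ± SD) in 5 structures, with 1 point per treatment, run and cohort, colored by treatment. Over all libraries, Psmb10 and Psme1 had their lowest mean in the DS and their highest in the LH. In challenge libraries of run0006, Psmb10 in the LCtx and LH lay within the spread of each other. The highest mean of Psmc5 was in the LH, and Psmc3ip was highest in the DS and NAc.

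Assembly factors and partner genes were read from a list of 28 further genes of the pathway, of which 25 were in the table and tested. Pomp, the chaperone that completes the core, rose from acute to repeated (0.18 ± 0.06), from acute to challenge (0.58 ± 0.06) and from repeated to challenge (0.40 ± 0.06) in the shared DS run, was higher in exp16 than in exp17 (0.37 ± 0.05), and was lower in the shared run than in run0090 in the same acute mice (-0.41 ± 0.04). Sem1, a small subunit of the regulator, rose from repeated to challenge (0.25 ± 0.06). Nfe2l1 fell by 0.40 ± 0.08 on the log2 scale from acute to challenge and by 0.26 ± 0.08 from repeated to challenge, and differed by 0.01 ± 0.04 between runs in the same acute mice. It rose in the LH from acute to repeated cocaine within 1 run. From acute to challenge across runs, it did not pass in the NAc, LCtx, Amy or LH. In all, 7 of 25 list genes rose and 5 fell from acute to repeated, 9 rose and 4 fell from acute to challenge, and 2 rose and 1 fell from repeated to challenge, beside the 9.79% and 7.94%, 11.6% and 9.84%, and 3.05% and 2.57% of all genes given above. Ubb, which encodes ubiquitin, differed between runs in the same acute mice by -1.23 ± 0.03. Among the 20S assembly factors Psmg1 to Psmg4 and the 19S factors Psmd5, Psmd9 and Psmd10, 0 of 7 passed in any of the 3 comparisons of treatments in the shared DS run.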

How the data were processed

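The authors deposited raw counts per gene: 3′ RNA-seq reads from 100 ng of RNA, collapsed by unique molecular identifier, were aligned with STAR to GRCm38 and counted with HTSeq (names from the submitters' processing notes, versions not given in the sources used here). Groups, runs and mice were taken from the labels. The members, gene lists and comparisons were chosen with earlier results of these data known. Counts were fitted with edgeR 4.0.16 in R 4.3.3 (filterByExpr, TMM scaling, quasi-likelihood F tests with time in the model, Benjamini-Hochberg over all genes passing the filter, threshold 0.05), with run as a term for the challenge libraries of several structures and the mouse as a block where mice had libraries in both runs. In NAc, LCtx, Amy and LH, 1 mouse each had a second library, and only 1 of its libraries entered the fits. The main comparisons between structures had no mouse term, although mice were shared between structures. Among the alternatives below, their replicate block was the mouse. CPM are counts over the library total. Named genes are the catalytic and immune subunits, Psmd4, Psmd14, activators, the inhibitor, assembly factors, Nfe2l1, and the 3 largest changes in each direction per comparison; others were named after their values were seen. Alternatives were RLE scaling, DESeq2 1.42.0, no filter, a replicate block and leaving out each library; the same-mice, cohort and LH-minus-Amy comparisons and the other-run libraries were added after seeing the data. Of 294 pairs of libraries within groups none agreed within sampling noise (lowest chi-square per degree of freedom 1.557). Replicates are separate mice per the labels. Amy and LH libraries of the same mouse, which the labels identify, had correlations of deviations of 0.008 to 0.060 (16 pairs). Totals of 1193306 to 10367769 counts limit the precision of genes below about 5 CPM. Loci were taken from the GENCODE annotation of GRCm38 and promoters from RefSeq. Scripts were tested on simulated data.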

Additional observations from a re-analysis of the deposited data

Results flagged for a closer look

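Of 81 checks within groups of 4 to 10 libraries, 4 found a library that stood apart from its group (Dixon's test at 95%), where chance gives about 1 in 20 checks. The checks covered core and regulator sums, their ratio, and levels of single genes in the shared DS run. All 4 were sums or ratios. In the Amy, acute replicate 2 at 4 hr summed to 2427.6 CPM of regulator genes, against 2147.2 to 2265.5 in the other acute libraries. Also in the Amy, repeated replicate 1 at 2 hr had a core to regulator ratio of 0.9284, against 0.9981 to 1.057. In the DS, repeated replicate 1 at 4 hr of cohort exp16 (run0230) summed to 2186.7 CPM of core genes, against 2436.2 to 2667.1. In the NAc, challenge replicate 3 at 4 hr (run0215) summed to 2475.7 CPM of core genes, against 2769.2 to 2912.6.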

How the results depend on the processing

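Counts of proteasome genes kept within 1.5 times their value in 132 of 149 alternative fits, and moved in 17. With the other-run libraries of the same mice, the count went from 10 to 34 (acute to repeated), 17 to 31 (acute to challenge), 6 to 20 (repeated to challenge; 18 with run0230 alone), 1 to 16 (naive to repeated) and 3 to 14 (naive to abstinent). With a replicate block the counts were 5, 9 and 0 in the first 3, 0 from naive to abstinent, 0 in the other DS mice, 0 between cohorts and 7 for repeated cocaine in the NAc. Deviations of libraries with the same number had a median correlation of -0.001 in the shared DS run (56 pairs, 0 over 0.1). It was -0.005 in run0230 of the DS (105 pairs, 2 over 0.1) and 0.004 in acute and repeated NAc libraries (63 pairs, 7 over 0.1). Amy and LH libraries of the same mouse reached only 0.008 to 0.060, so this check cannot tell whether libraries with the same number are linked. Without the filter the repeated to challenge count was 3 and the naive to repeated count 2, DESeq2 gave 2 for the latter, and each treatment alone gave 1 over time. With other-run libraries 8 of 10 and 7 of 17 called genes passed in the opposite direction from acute to repeated and from acute to challenge, among them, in the first, Psmb6 -0.52, Psmb7 -0.30, Psme1 -0.17 and Psmc1 -0.32, and, in the second, Psmb6 -0.19, Psmb10 -0.27 and Psmb3 -0.16. At 0 hr Psmb7 passed in the opposite direction from naive to repeated (-0.43), while from naive to abstinent Psmb7 (-0.034), Psmc1 (-0.085) and Psmc3 (-0.24) had a negative sign and did not pass the test. The cause was not tested. Leaving out 1 library gave 2 to 6 genes from repeated to challenge, 0 to 2 and 1 to 3 at 0 hr (repeated, abstinent), 1 to 4 in the other DS mice, 4 to 8 in the LH, 0 to 3 and 7 to 11 for repeated cocaine in the LCtx and NAc, and 1 to 4 over time. Cohort, treatment and, for challenge mice, age cannot be told apart in any comparison of treatments. Outside single runs, run cannot be told apart from them either.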
